A study of Drosophila melanogaster with 3 samples.

Results

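The upstream promoter summits described here are regions bound by GFP-tagged CG9139 whose point of highest enrichment, the summit, lay over 100 and up to 500 bp from the nearest transcription start site (TSS) of a protein-coding gene and upstream of it in the direction of transcription. They were chosen by position alone, from the regions that passed the irreproducible discovery rate (IDR), a test of agreement between replicates, and Ensembl gene starts on the dm6 genome. They numbered 797 of 4934 IDR peaks, or 16.2%, and lay nearest to 702 of 13968 protein-coding genes (5.03%). The study was a chromatin immunoprecipitation with sequencing of whole prepupae of mixed sex, labelled 24 hour; the antibody was directed against GFP, and the 3 biological replicates form 1 group. The line stably expresses CG9139 (Rabex-5), which activates the early endosomal GTPase Rab5, with GFP at its C-terminus. Chromatin came from whole animals, so binding in a few tissues cannot be told apart from weaker binding in many, and no library without the tagged protein was analysed here.

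A promoter of a fruit fly gene has a core, where RNA polymerase II and the general factors assemble around the start, and a proximal stretch upstream of it, where sequence-specific factors bind and keep nucleosomes off the DNA. GAGA factor (Trl), which binds GAGAG, is a known organiser of such open promoters. Many fly genes also sit head to head, so that the stretch upstream of one gene is the upstream stretch of its neighbour as well.

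The windows around the strongest of these summits were rich in A and T. The bases within 100 bp of 6 summits are given below in the direction of the nearest gene, from the Release 6 genome of RefSeq. The first 4 are those of highest signal that recurred in all replicates. The next 2, at Art3 and CG18428, are divergent pairs of lower signal. They are not a strict ranking: the intergenic summit of the mRpL41 pair, with a signal of 1094, lay between their 1162 and 1048 and is not shown. Each lies off the annotated untranslated regions, and windows that did not were passed over. A seventh, at Syp, was chosen after its sequence was seen, as a strong summit with at least 3 GAGAG elements. It was not the strongest with that many: shn had a signal of 816 and 4 elements, against 814 at Syp. Capitals mark runs of 10 or more bases that hold only A and T, and GAGAG on either strand.

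larp, chr3R:28326502-28326702, minus strand: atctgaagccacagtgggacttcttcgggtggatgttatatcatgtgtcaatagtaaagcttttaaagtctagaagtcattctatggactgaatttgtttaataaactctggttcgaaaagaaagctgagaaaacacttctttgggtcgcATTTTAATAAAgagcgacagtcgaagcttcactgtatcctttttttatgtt
CG18549, chr3R:12449069-12449269, plus strand: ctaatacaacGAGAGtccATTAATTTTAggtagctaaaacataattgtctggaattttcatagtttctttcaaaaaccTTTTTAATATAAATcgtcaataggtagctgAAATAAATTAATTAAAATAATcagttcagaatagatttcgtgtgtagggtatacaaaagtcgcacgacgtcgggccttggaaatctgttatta
CG43658, chrX:17531561-17531761, minus strand: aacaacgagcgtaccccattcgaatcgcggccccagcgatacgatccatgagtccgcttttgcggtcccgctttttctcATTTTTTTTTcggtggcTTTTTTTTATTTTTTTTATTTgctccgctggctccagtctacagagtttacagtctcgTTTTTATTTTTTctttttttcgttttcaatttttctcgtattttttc
CenG1A, chr2L:13835361-13835561, plus strand: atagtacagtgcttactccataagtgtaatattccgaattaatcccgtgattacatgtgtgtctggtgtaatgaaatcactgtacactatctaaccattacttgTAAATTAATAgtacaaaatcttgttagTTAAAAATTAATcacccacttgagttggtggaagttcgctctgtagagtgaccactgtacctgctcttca
Art3, chr3R:15229431-15229631, minus strand: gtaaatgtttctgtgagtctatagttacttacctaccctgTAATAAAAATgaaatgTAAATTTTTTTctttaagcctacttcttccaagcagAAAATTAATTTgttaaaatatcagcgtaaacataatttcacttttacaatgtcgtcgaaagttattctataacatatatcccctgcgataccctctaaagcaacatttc
CG18428, chr3R:24109091-24109291, plus strand: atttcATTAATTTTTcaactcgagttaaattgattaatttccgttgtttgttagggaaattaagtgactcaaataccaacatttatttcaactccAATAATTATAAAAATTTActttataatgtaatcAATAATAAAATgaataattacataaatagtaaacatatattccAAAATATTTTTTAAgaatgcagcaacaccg
Syp, chr3R:20778589-20778789, plus strand: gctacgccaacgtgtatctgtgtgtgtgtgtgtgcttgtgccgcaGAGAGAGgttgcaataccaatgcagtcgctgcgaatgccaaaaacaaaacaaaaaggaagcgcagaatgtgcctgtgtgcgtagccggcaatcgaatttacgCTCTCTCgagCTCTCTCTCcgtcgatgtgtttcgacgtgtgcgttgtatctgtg

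Within 50 bp of the summit, G and C made up 33.7% at larp, 23.8% at CG18549, 40.6% at CG43658, 28.7% at CenG1A, 26.7% at Art3 and 18.8% at CG18428. The Syp window stood at 47.5% and held 7 GAGAG elements, which lay to both sides of the summit and left its centre free. The other 6 windows held 1 such element in all, at CG18549. Over all 797 summits, 70.4% of the windows held a run of 10 or more A and T, with an exact 95% binomial interval of 67.1 to 73.5%. The same run was present in 43.2% of the 750 windows at core promoter summits, within 100 bp of a TSS. At summits over 100 to 500 bp downstream of a TSS the share was 45.4%. At the 3074 summits over 500 bp from any TSS it was 68%, close to that of the upstream summits. The run was thus not particular to the upstream class. Such a run was present in 64.6% of the windows centred 206 bp upstream of every annotated protein-coding TSS, so the excess over fly promoters at this distance was small. These intervals cover counting error only, and the regions are not replicates.

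The summits crowded towards the near end of the range. Their median distance to the TSS was 206 bp, with quartiles at 151 and 299 bp. Counted per Mb of genome at the same distance, there were 251 summits at over 100 to 150 bp and 262 at over 150 to 200 bp, against 49.2 at over 450 to 500 bp. Among IDR peaks the density thus did not fall on passing out of the core promoter: it was 250 per Mb at 1 to 50 bp upstream and 246 per Mb at 51 to 100 bp upstream. On the other side of the TSS it had dropped to 82.1 per Mb at over 100 to 150 bp. The replicates' own lists, each cut to its strongest candidates, as many as there are IDR peaks, gave 295, 261 and 191 summits per Mb at over 150 to 200 bp upstream in replicates 1, 2 and 3. The lowest of these still exceeded the highest density at over 150 to 200 bp downstream, which was 78.5 per Mb. Nearer the TSS, these lists gave 238, 245 and 250 per Mb at 51 to 100 bp upstream and 285, 278 and 242 at over 100 to 150 bp. Replicate 3 thus fell on passing out of the core promoter, and replicates 1 and 2 did not. Over the whole range the upstream summits reached 156 per Mb, core promoter summits 205 per Mb and downstream summits at over 100 to 500 bp 47.6 per Mb.

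**Figure D1:**
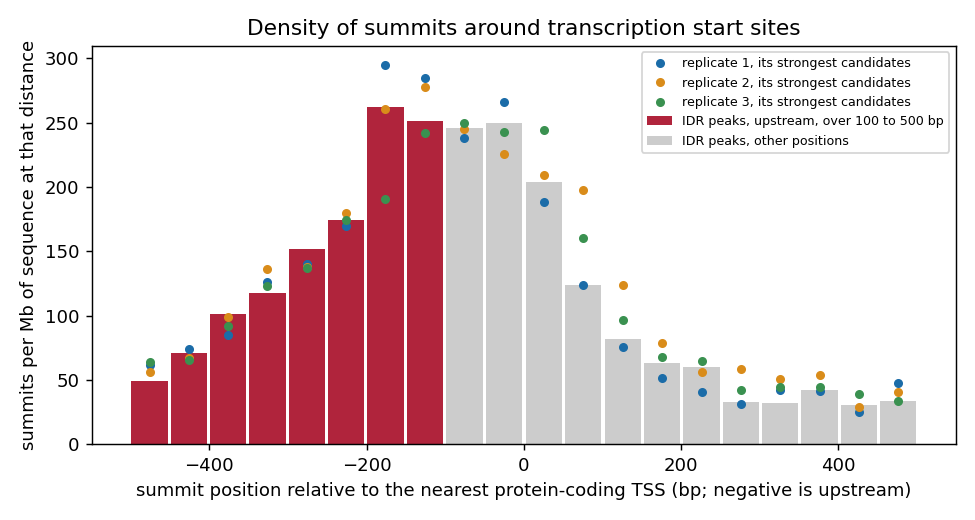
Summits per Mb of sequence (vertical axis) in 50 bp steps of distance from the nearest protein-coding TSS (horizontal axis, upstream negative). Bars are IDR peaks, with the upstream range in red, and points are the strongest candidates of each replicate; the bars stay near 250 per Mb from the TSS to 200 bp upstream and then decline, while downstream they fall within 150 bp.

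The bounds cut through this distribution without a gap. Of the summits 1 bp inside the near bound, CG5611 had a signal of 916, FoxK 507 and RpS20 114. Just outside it, at 100 bp, lay CG3032 with 152 and CG42694 with 126. Just inside the far bound lay CG3638 at 500 bp with a signal of 242, and just outside it nw at 501 bp with 238. The signal is the authors' enrichment value over a control alignment from the pooled replicates.

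Upstream summits had higher signal than the other classes near genes. Their median signal was 196, with quartiles of 138 and 329 and a range of 106 to 1896. The median was 155 for core promoter summits, 153 for downstream summits and 167 for the 3074 summits over 500 bp from any TSS. Of the 100 IDR peaks of highest signal, 34 were upstream summits, or 4.27% of this class, against 1.87% of core promoter summits. In the single replicates, the signal was set relative to the median of all IDR peaks in that replicate, so that 1 is the typical peak. The median relative signal of upstream summits was 1.22, 1.17 and 1.11 in replicates 1, 2 and 3, and that of core promoter summits 0.871, 0.948 and 0.992. All 3 replicates placed the upstream summits above the core ones, and the values did not overlap. The difference was 0.228 ± 0.115 (SD, n = 3), with p = 0.25 in an exact two-sided sign-flip permutation test over the replicates, the smallest p that 3 replicates can give. Against downstream summits the difference was 0.185 ± 0.104 and against summits over 500 bp away 0.18 ± 0.0463, positive in 3 of 3 replicates and at the same p of 0.25 in the exact permutation test. The replicates share their genomic sites and 1 control alignment, so their spread measures the libraries only.

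The difference from the core promoter was shared by all replicates only at summits poor in G and C. Among summits with less than 40% G and C within 50 bp, 538 upstream summits had a mean median relative signal of 1.34 ± 0.139 and 185 core summits 1.09 ± 0.0618 (SD, n = 3). The difference there was 0.319, 0.255 and 0.163 in the 3 replicates (p = 0.25, exact permutation test). Among summits at 40% or more, 259 upstream summits stood at 0.929 ± 0.0235 and 565 core summits at 0.903 ± 0.0892. The difference there was 0.107, -0.0046 and -0.0243, so its direction was not shared by the replicates. The other 2 contrasts behaved alike. Under 40% the difference was 0.249 ± 0.171 from downstream summits and 0.304 ± 0.125 from summits over 500 bp away, each positive in 3 of 3 replicates. At 40% or more it was 0.0451, -0.0125 and -0.0236 from downstream summits. From summits over 500 bp away it was -0.0224, 0.0669 and 0.0218. Whether the 2 composition ranges differ in these contrasts was not tested. The split by composition was chosen after seeing the data.

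**Figure D2:**
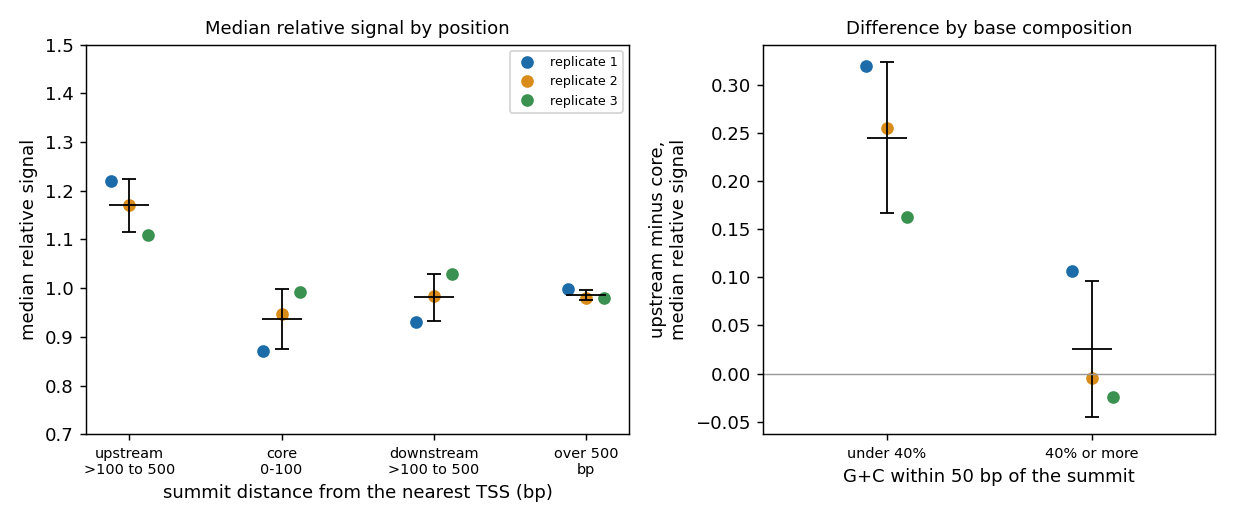
Left, median relative signal (1 is the median of the IDR peaks in a replicate) of 4 classes of summits; right, upstream minus core difference in that median for summits under 40% and at 40% or more G and C. Points are the replicates, and horizontal marks with bars are the mean and SD of 3; the upstream points lie above all others on the left, and the difference is positive in every replicate only in the low range on the right.

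Recurrence among the strongest candidates was likewise higher upstream. Those candidates were picked by the same signal, so this is not a result separate from the signal difference. Of the 797 summits, 540 (67.8%, exact 95% interval 64.4 to 71%) recurred in all 3 replicates among candidates of the highest signal, against a background of 58.0% over all IDR peaks. Core promoter summits stood at 48.3%, downstream summits at 57.8% and summits over 500 bp away at 57.9%. By replicate, 88.6%, 84.9% and 81.3% of upstream summits and 73.9%, 78.4% and 78.5% of core summits were recovered among the strongest candidates. The difference was 14.7, 6.54 and 2.77 percentage points, or 8.01 ± 6.11 (SD, n = 3; p = 0.25, exact permutation test). Replicate 1 held the largest gap, and the mean was 4.66 points without that replicate. It also moved with the number of candidates kept, to 18.7 points with the strongest 2000 and 2.83 with the strongest 10000. Over all candidates the order was another: 762 of the 797 (95.6%) were listed in every replicate, below the 96.8% over all IDR peaks and the 98.4% of summits over 500 bp away, and above the 92.7% of core and 94.6% of downstream summits. The replicate's own summit lay at a median of 20, 19 and 18 bp from the IDR summit, and 89.9% ± 2.21 (SD, n = 3) of the listed members stayed within the upstream range by that summit. The median summit distance differed from that of core promoter summits by 1.17 ± 2.84 bp, which is within the spread between replicates (p = 0.75, exact permutation test).

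Signal and distance to the TSS were only loosely related among the members. The Spearman correlation across the 797 summits was -0.0719, and -0.0464, -0.064 and -0.0789 in the replicates; it runs across regions that share libraries and is a description. The step from over 150 to 200 bp carried the highest median signal, 238, and its relative signal was 1.39, 1.3 and 1.28 in the replicates. At over 100 to 150 bp the median signal was 203 and at over 350 to 400 bp 165. Regions are a median of 430 bp wide, so many reached the TSS itself. Those 321 that covered the TSS had a median relative signal of 1.06, 1.02 and 1 in the replicates, and the 476 that did not had 1.41, 1.29 and 1.19. The difference was -0.268 ± 0.0756 (SD, n = 3; lower in 3 of 3 replicates, p = 0.25, exact permutation test).

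The highest signal belonged to larp, which encodes an RNA-binding protein of the La-related family. Its summit lay 338 bp upstream of an internal start, in an intron of the gene, and its relative signal was 12.4, 9.56 and 9.46 in replicates 1, 2 and 3. It ranked 8, 7 and 10 among the 30000 candidates of these replicates. CG18549 followed, 127 bp upstream, with 9.27, 7.43 and 8.19. CG43658 had 6.37, 7.71 and 8.04 at 207 bp and was lowest in replicate 1. Gapdh2, which encodes the glycolytic enzyme glyceraldehyde-3-phosphate dehydrogenase, had 7.45, 5.92 and 6.08 at 166 bp. The order of these 4 holds by their means, but CG18549 and CG43658 overlapped in their replicate values, as did CG43658 and Gapdh2.

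Further strong members, some of which are named here, had summits between genes, in introns or in 5′ UTRs. The gene gish, which encodes a casein kinase I, had 7.17, 5.41 and 4.59 at 158 bp. Gug, the fly atrophin and a transcriptional corepressor, had 6.28, 5.15 and 4.67 at 347 bp. The curled gene cu, which encodes the fly Nocturnin, had 6.51, 4.27 and 4 at 254 bp. Hsp27, a small heat shock protein gene that is also switched on by ecdysone, had 5.67, 5.5 and 4.75 at 150 bp. SLC5A11, a gene of the sodium and solute cotransporter family, had 6.61, 5.48 and 5.45 at 152 bp. Over the 20 strongest recurrent members the lowest value of any replicate was 3.71, at mRpL41 in replicate 3. Replicate 1 gave the highest of the 3 values at all of them but CG43658 and Tina-1. The widest spread was at mRpL41, a mitochondrial ribosomal protein gene, with 9.49, 4.02 and 3.71.

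**Figure D3:**
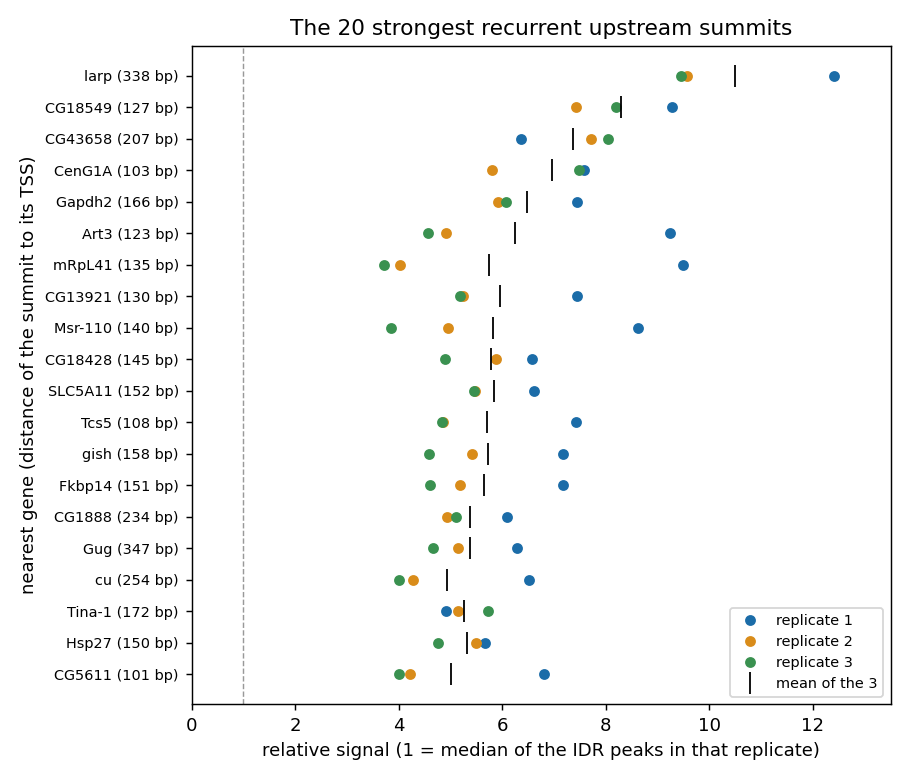
Relative signal (horizontal axis, 1 is the median of the IDR peaks in that replicate, dashed line) of the 20 strongest upstream summits that recurred in all 3 replicates, by nearest gene and distance to its TSS. Coloured points are the replicates and black marks their mean; all points lie to the right of the dashed line, and those of replicate 1 are often the farthest right.

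Few upstream summits lay in coding exons. Introns held 353 of the 797 (44.3%, exact interval 40.8 to 47.8%), while 29.3% of all genome bases that meet the same distance rule lie in introns. Coding exons held 4 summits (0.502%) against 7.64% of these bases, and 3′ UTRs held 9 (1.13%) against 8.28%. The 5′ UTRs of other starts held 43 (5.4%) against 2.39%. Sequence between genes held 388 (48.7%) against 52.3%. Over all these contexts, 351 summits (44%) lay inside the body of their nearest gene, upstream of an internal start, against 23% of the bases. They include summits in 5′ UTRs, such as that of Gug, and some intronic summits lay in another gene, such as that of elav. Genes with a single annotated start supplied 35.3% of the summits and 57.7% of the bases. Summits inside their own gene had a relative signal of 1.14, 1.12 and 1.1, and those outside it 1.31, 1.21 and 1.12, a difference of -0.0933 ± 0.0824 (SD, n = 3; lower inside in 3 of 3 replicates, p = 0.25, exact permutation test).

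Several genes with alternative starts carried a summit at more than 1 of them. Of the 702 genes, 624 had 1 upstream summit, 67 had 2 and 11 had 3 or more. These are counts of summits, and summits of a gene can share a start, as some did at mamo, Drat and Msr-110. The number of genes with summits at more than 1 start was not counted. The summed signal was highest at mamo, a zinc finger gene, with 4 summits on the X chromosome. Its pair of intergenic summits, 140 and 372 bp upstream of its outer start, had relative signals of 3.91, 3.44 and 3.52 and of 4.4, 2.93 and 2.61, and their windows held 9 and 5 GAGAG elements. Its intronic summits were weaker, at 2.13, 1.57 and 1.28 and at 0.935, 1.49 and 1.1. At Ptpmeg2, a protein tyrosine phosphatase gene, the 3 summits lay 199, 202 and 204 bp upstream of 3 separate starts, with mean relative signals of 3.15, 1.89 and 3.74. RapGAP1, a GTPase-activating protein gene for Rap1, had 3.42, 4.01 and 3.76 at 177 bp from one start and 2.28, 3.23 and 4.2 at 189 bp from another. Every replicate value at these 2 RapGAP1 summits was over 2 times the median peak.

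Svil, the fly supervillin gene, and dnc, the cAMP phosphodiesterase gene dunce, carried 5 each, the largest number at 1 gene. The mean relative signals at Svil ran from 0.779 to 3, and those at dnc from 0.56 to 1.9. At Svil, summits 326 and 125 bp from a start were matched to the same candidate in replicates 1 and 3, so their values there, 2.87 and 3.07, are not independent. Such sharing touched 32, 36 and 22 members in the 3 replicates. In all, 124 members (15.6%) belonged to genes that also had a core promoter summit, and 64 to genes that also had a downstream summit.

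Between divergent genes, with starts on opposite strands at most 1000 bp apart, lay 124 upstream summits, or 15.6% (exact interval 13.1 to 18.3%). Of all genome bases that meet the distance rule, 9.55% lie in such a stretch. That share was not matched to the distances of the summits, which crowd towards the TSS, as divergent stretches do. The part of distance in the excess was not tested. Judged by the pairing of their nearest start, 30.1% of core promoter summits and 34.2% of downstream summits belonged to such pairs. Both shares were above that of the upstream summits, but no share of bases was counted for core and downstream positions. The distance rule also bars upstream summits from pairs whose starts lie close together, so the classes are not like for like. For upstream summits the replicates' own lists gave 18.9%, 15.5% and 12.2%, each above the 9.55% of bases. The paired starts were a median of 450 bp apart, and 103 of the 124 summits also lay within 500 bp of the partner's TSS. For these summits the nearest gene is only the closer of 2 candidates. Divergent summits had a relative signal of 1.57, 1.29 and 1.17 against 1.15, 1.15 and 1.1 for the other members, a difference of 0.212 ± 0.188 (SD, n = 3; positive in 3 of 3 replicates, p = 0.25, exact permutation test). Replicate 1 decided its size, with 0.424 against 0.144 and 0.0667 in the others. Recovery among the strongest candidates did not follow the signal: it was 93.5%, 81.5% and 66.9% in the 3 replicates, against 87.7%, 85.6% and 84% for the other members. In all 3 replicates together, 61.3% of divergent and 68.9% of the other members recurred. These summits were also lower in G and C, at a median of 27.7% within 50 bp of the summit against 34.7% for the other members, and the part of base composition in their signal was not tested.

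The pairs of highest signal included genes for mitochondrial ribosomal proteins. CenG1A, which encodes a GTPase-activating protein for Arf, shared its upstream stretch with mRpS23, with starts 492 bp apart and the summit 389 bp from that of mRpS23. Its relative signal was 7.58, 5.8 and 7.49. Art3, an arginine methyltransferase gene, stood 257 bp from mRpS10, and the summit, 123 bp from Art3 and 134 bp from mRpS10, had 9.24, 4.92 and 4.57. CG18428 faced eIF4EHP, which encodes a cap-binding repressor of translation, with 6.57, 5.88 and 4.89. Tcs5 faced CHMP2B, a gene of the membrane-remodelling complex ESCRT-III, at 224 bp, and had 7.43, 4.86 and 4.83. CG5611 faced Mtl with 6.81, 4.21 and 4. The other 3 of the 8 strongest pairs were mRpL41 with CG8079, CG3552 with CG3437 and Pal1 with Pdrg1, with mean relative signals of 5.74, 4.59 and 4.45. In all, 5 divergent summits had a mitochondrial ribosomal protein gene as partner, while that family of 75 genes had 1 member as nearest gene. Over all 13968 protein-coding genes the count of such summits was 124. Of the mitochondrial ribosomal protein genes, 1 had a core promoter summit.

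Gene groups differed in whether their summits lay upstream or at the core. Of the 93 genes for cytosolic ribosomal proteins, 54 (58.1%) had a core promoter summit and 2 (2.15%) had an upstream one, against 5.18% and 5.03% of all protein-coding genes. The exceptions were RpS20, at the near bound with 0.977, 0.925 and 0.373, and RpL17, at 142 bp with 0.748, 0.28 and 0.763. In the replicates' own lists 5, 0 and 1 of these genes had an upstream summit and 69, 55 and 34 a core summit. Translation factor genes stood at 2 of 57 upstream and 7 core. Proteasome and cuticle protein genes had no upstream IDR summit, at 0 of 48 and 0 of 122, and the replicates' own lists held 0 proteasome genes and 1 cuticle gene each. They had 0 core and 0 downstream IDR summits as well, so they show no difference between upstream and core. The lists were chosen with earlier results of these data known, so their counts are a description.

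Genes of the ecdysone response, the steroid response that drives metamorphosis and is active in prepupae, had an upstream summit at 11 of 30 (36.7%) and a core summit at 9 of 30. The median signal of the 16 summits of this list was 186, below the 196 over all members. Sox14, a transcription factor gene induced by ecdysone, had relative signals of 5.7, 3.72 and 4.01 at 254 bp. E23, an ecdysone-induced ABC transporter gene, had 3.29, 3.19 and 2.02 at 222 bp. Eip93F, an ecdysone-induced transcription factor gene, had 2.02, 0.616 and 1.34 at 308 bp and did not recur among the strong candidates of every replicate. The number of these genes with an upstream summit in the replicates' own lists was 11, 9 and 6. Genes of this list have a mean of 2.7 annotated starts against 1.41 over all genes, which gives them more upstream sequence. The mean was also above that of all genes in the lists for muscle and cytoskeleton (3.18), the clock (2.86), glia and neurons (2.84), glycolysis (2.62), insulin and TOR (2.24), EGFR and Ras (1.68) and chromatin (1.67), and it was 1.43 for the Notch pathway. The same held for lipid and sterol (2.3), Hedgehog and disc patterning (2.04), Wnt (1.92), heat shock (1.89) and Dpp and activin genes (1.85). It held too for JNK, JAK-STAT and immunity (2), cell cycle (1.74), cytosolic ribosomal (1.7), Rab (1.69) and proneural genes (1.5). Translation factor genes (1.47) and oxidative phosphorylation genes (1.43) were only just above. The part of this in the counts was not tested.

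Glycolysis genes stood at 5 of 16 (31.2%) upstream and 3 of 16 at the core. In the replicates' own lists 6, 8 and 5 of them had an upstream summit, so which of the glycolysis and ecdysone lists had the higher share depended on the list of peaks. Besides Gapdh2, the enolase gene Eno had 5.65, 3.79 and 4.46 at 156 bp, the hexokinase gene Hex-A 4.01, 2 and 3.35 at 245 bp, and the lactate dehydrogenase gene Ldh 1.43, 1.72 and 1.58 at 207 bp. The median signal of the 6 summits of this list was 423. EGFR and Ras signalling genes stood at 7 of 25, insulin and TOR genes at 8 of 29, Notch pathway genes at 8 of 30 and clock genes at 3 of 14. A core summit was at 5, 7, 4 and 1 genes of these lists, in the same order. The median signal was 188 in the EGFR list, 170 in the insulin and TOR list, 246 in the Notch list and 331 in the clock list, and the genes named are the strongest of each list. In the insulin and TOR list, REPTOR, a transcription factor gene repressed through TOR, had 2.89, 2.9 and 2.52 at 193 bp. The Sestrin gene Sesn, an inhibitor of TOR, had 2.54, 2.43 and 3.34, and SNF4Agamma, a subunit of the AMP-activated kinase, 2.29, 2.82 and 2.23. These genes were more than 2 times the median peak in every replicate, but chrb, the next in signal and an inhibitor of TOR signalling, had 0.808, 1.06 and 1.08.

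Among Notch pathway genes, numb, an inhibitor of Notch in asymmetric divisions, had 2.34, 1.93 and 1.32 at 168 bp. The target gene E(spl)m7-HLH had 1.94, 1.87 and 2 at 341 bp, the coactivator gene mam 1.26, 1.62 and 1.18, and the ubiquitin ligase gene neur 1.6, 1.85 and 1.28. In the EGFR list the ligand gene spi had 1.44, 2.05 and 2.01, the regulator edl 1.43, 1.65 and 1.88, the effector gene pnt 1.8, 1.2 and 1.17, and the receptor gene Egfr 1.15, 1.08 and 0.943. Ligand, effector and receptor genes of this pathway thus all had upstream summits, the receptor's close to the typical peak. Dpp and activin signalling genes stood at 3 of 20 upstream and 6 of 20 at the core. Of the upstream ones, the repressor gene shn had 5.13, 3.82 and 4.8, and the receptor gene tkv 0.656, 1 and 0.473.

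Chromatin and insulator genes stood at 7 of 43 upstream, with a median signal of 177, and 6 of 43 at the core. The Polycomb group gene ph-p had 7.23, 3.94 and 3.25 at 452 bp, its neighbouring near-copy ph-d 2.38, 1.72 and 1.09 at 254 bp, and Psc 1.88, 1.49 and 0.899. Reads from the ph-p and ph-d copies may be exchanged in part. Trl, the gene for GAGA factor itself, had 1.34, 0.932 and 1.02 at 199 bp. Rab and endocytosis genes, the pathway of CG9139, stood at 4 of 39 upstream and 2 of 39 at the core. Rab5, the GTPase that Rabex-5 is known to activate, had 3.16, 4.2 and 4.18 at 279 bp in an intron. Arl1 had 5.17, 2.27 and 2.08 at 126 bp, between it and brm, and Rab7 1.16, 0.954 and 1.19. Glial and neuronal genes stood at 4 of 19 upstream and had no core IDR summit, though 1 had a core summit in the list of replicate 3. The neuronal RNA-binding protein gene elav had 3.84, 2.4 and 3.27, while futsch, a microtubule-associated protein gene, had 0.396, 0.719 and 0.964.

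Heat shock and chaperone genes stood at 5 of 27 upstream and 5 of 27 at the core. Of the 5 nearest genes of upstream summits, 4 lay in 1 cluster on arm 3L. Beside Hsp27, the relative signals were 1.04, 1.23 and 1.36 at Hsp23, 0.955, 1.22 and 1.25 at Hsp26, and 0.813, 0.913 and 1.02 at Hsp22. Hsp27 stood above these neighbours in every replicate without overlap. The Hedgehog and disc patterning list and the Wnt list stood at 5 of 27 and 4 of 25, with the same counts at the core. In them sgg, the kinase gene of the beta-catenin destruction complex, had 2.46, 3.86 and 3.18, and the homeobox gene ct 2.45, 1.93 and 1.14. The receptor genes fz3 and fz were weaker, with 1.03, 0.405 and 1.05 and with 0.56, 0.758 and 0.855, as was dac, a gene of eye and leg patterning, with 0.904, 0.483 and 0.613. Lipid and sterol genes stood at 3 of 20 upstream and 3 of 20 at the core. The phosphatidate phosphatase gene Lpin had an upstream summit with 6.1, 3.43 and 3.84. Hippo genes stood at 3 of 16 upstream and 3 of 16 at the core. Upstream, ex was highest at 2.06, 1.11 and 1.3, and the cadherin gene ft had 0.661, 0.676 and 0.994.

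The remaining lists held few members. Muscle and cytoskeleton genes stood at 4 of 28, apoptosis at 2 of 17 (hid had 2.46, 1.57 and 1.33), cell cycle at 3 of 31, JNK, JAK-STAT and immunity at 2 of 31, and proneural and HLH genes at 1 of 22. In the same order, a core summit was at 5, 2, 2, 6 and 3 genes of these lists. Oxidative phosphorylation genes stood at 1 of 94 upstream and 1 of 94 at the core. The upstream one, ND-ASHI, had 3.93, 2.76 and 3.21. Of the histone genes 1 had an upstream summit, and autophagy genes stood at 0 of 22. Both lists had 0 core IDR summits. Many histone genes are near-identical copies, whose reads cannot be told apart.

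The base composition around upstream summits formed a trough. In the replicates' own lists, at their own summits, G and C made up 35.3% ± 0.651 (SD, n = 3) at the summit, 41.5% ± 0.173 at 150 bp on the distal side and 47% ± 0.513 at 150 bp towards the gene. Core promoter summits had no trough: the values were 45.3% ± 1.43 at the summit, 40.8% ± 1.76 distal and 44% ± 0.577 towards the gene. Summits over 500 bp from any TSS had a trough of like centre, 35.8% ± 0.493 at the summit, but with more even flanks, 44.5% ± 0.379 and 43.8% ± 0.416. Within 50 bp of the summit the upstream summits stood at 35.7%, 36% and 37% in replicates 1, 2 and 3, and core summits at 44.5%, 45.6% and 47%. The difference was -9.44 ± 0.603 percentage points, lower in 3 of 3 replicates (p = 0.25, exact permutation test, the smallest that 3 replicates can give). All genome bases that meet the upstream rule average 38.2% in such windows, and those within 100 bp of a TSS 42.4%. The upstream summits thus stood below, and the core summits above, the average of their own position.

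**Figure D4:**
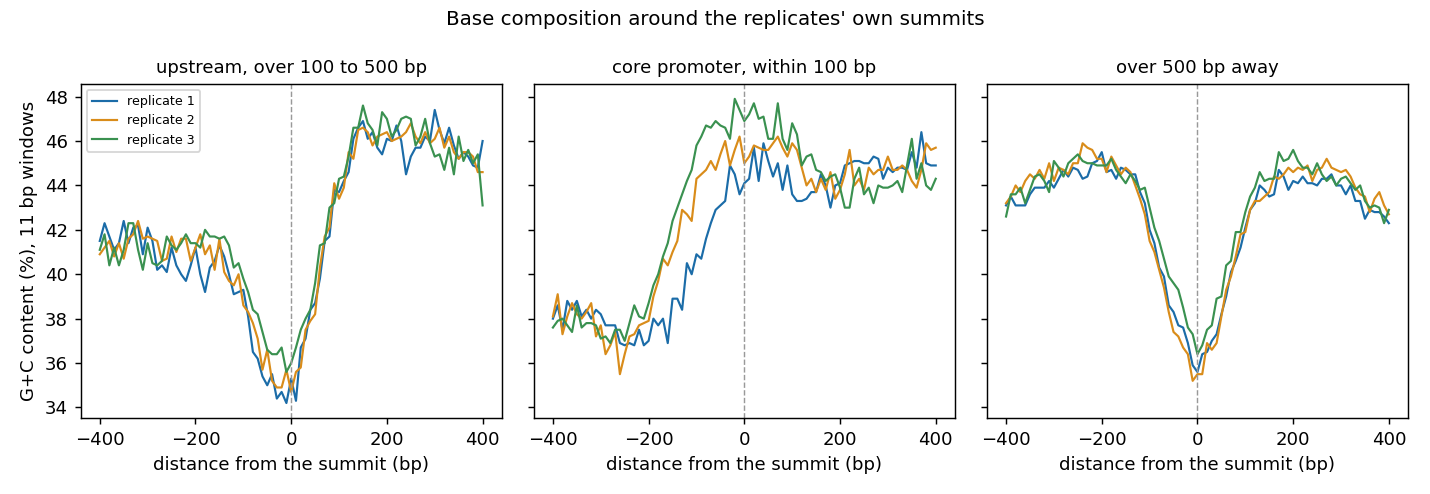
G and C content in 11 bp windows (vertical axis, percent) against distance from the summit in the direction of the nearest gene (horizontal axis, bp), for each replicate's own strongest candidates. Upstream summits and those over 500 bp away sit in a trough near 35% at 0 in all 3 replicates, and core promoter summits do not.

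Within the members, signal went with composition. The 291 summits under 30% G and C had a median relative signal of 1.51, 1.43 and 1.27, the 247 at 30 to 40% had 1.39, 1.3 and 1.17, and the 259 at 40% or more had 0.912, 0.919 and 0.956. The difference between the outer groups was 0.477 ± 0.148 (SD, n = 3), positive in 3 of 3 replicates (p = 0.25, exact permutation test). Replicate 1 had the widest gap, 0.602, and replicate 3 the smallest, 0.313. No read counts or fragment data were used, so the part that composition-dependent recovery of DNA plays in these values was not tested.

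The words of 6 bases that gained most over windows 1000 bp farther upstream were of 2 kinds. Ranked by the smallest of the 3 replicate differences, the first 6 held only A and T, with AAAATA at the head, which was present in 55.8% of windows in replicate 1, against 35.8% of the farther windows. The next in rank was AGAGAG, and others with GAGAG followed it. AGAGAG was present in 21.4% of the upstream windows of replicate 1 against 9.16% farther upstream, and in 20.8% of core windows.

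The GAGA factor element GAGAG, sought on both strands, was in 39.9% of the windows reaching 100 bp to each side of upstream IDR summits (exact interval 36.5 to 43.4%). It was in 22.8% of the windows 206 bp upstream of every protein-coding TSS and in 21.5% of the windows 1000 bp farther upstream. Core promoter summits had it in 44.3% and summits over 500 bp away in 30.6%. In the replicates' own lists the upstream share was 36.9%, 40.4% and 45.1% and the core share 34.4%, 41.5% and 47%, and the difference of -0.165 ± 2.34 points (SD, n = 3) was within the spread between replicates (p = 1, exact permutation test). The direction of that difference turned without replicate 2, at 0.28, and without replicate 3, at 0.719.

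Upstream and core summits differed in where the element lay. In replicates 1, 2 and 3 it was found within 50 bp of 21.5%, 24% and 23.5% of the upstream summits, while a stretch of the same length, 100 to 200 bp to the side, held it in 29.3%, 28.5% and 30.2%, averaged over both sides. The centre minus side difference was -6.28 ± 1.69 points (SD, n = 3), negative in 3 of 3 replicates. At core promoter summits the same difference was 4.63 ± 3.46 points and positive in 3 of 3. Summits over 500 bp away shared the dip of the upstream ones, at -3.1 ± 0.548 points and negative in 3 of 3 (p = 0.25 for each of the classes, exact permutation test). The centre of upstream summits is also the stretch lowest in G and C, and the part of composition in this spacing was not tested. Members with the element had a lower relative signal, 1.07, 1.08 and 1.07, than the 479 without it, 1.35, 1.26 and 1.14, but also a higher G and C content, with a median of 40.6% against 30.7%.

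**Figure D5:**
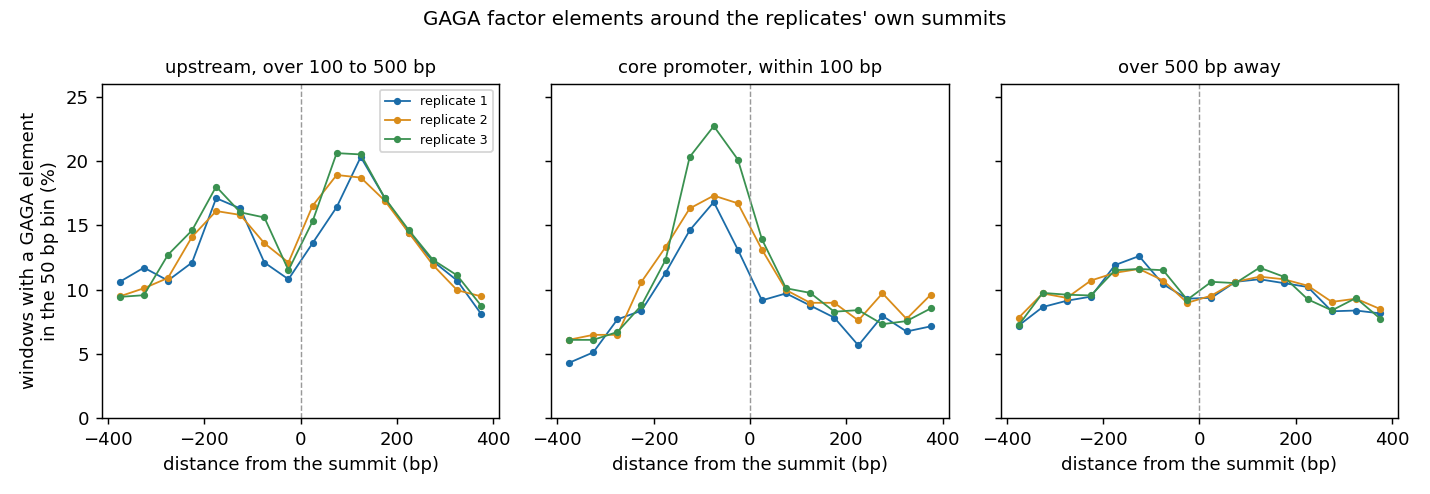
Share of windows with the GAGA factor element in each 50 bp step (vertical axis, percent) against distance from the summit in the direction of the nearest gene (horizontal axis, bp), for each replicate's own strongest candidates. At upstream summits all 3 replicates show a dip at the centre between maxima on both sides, and at core promoter summits a single maximum just upstream of the summit.

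A pair of elements known from core promoters, and 1 E-box, were scarcer at the upstream summits than at the core ones. GGTCACAC, the core of the element bound by M1BP, was in 0.502% of upstream windows (4 of 797) and 3.87% of core windows. By replicate the shares were 0.357%, 0.971% and 0.41% upstream and 5.66%, 5.11% and 4.99% at the core, a difference of -4.67 ± 0.59 points (SD, n = 3) without overlap. ATCGATA, the core of the DNA replication-related element, was in 3.8%, 3.28% and 3.14% upstream and 11.5%, 6.6% and 5.6% at the core, a difference of -4.48 ± 2.78 points. CAGCTG, the E-box of proneural and myogenic factors, was in 9.46% ± 0.299 upstream and 14.1% ± 0.123 at the core. Each of these was lower upstream in 3 of 3 replicates, with p = 0.25 in the exact permutation test. The windows 206 bp upstream of every TSS held GGTCACAC in 1.85%, ATCGATA in 6.35% and CAGCTG in 8.96%.

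Elements rich in A and T went the other way. TATAAA, the usual form of the TATA box, was in 32.8% ± 1.11 of upstream and 22.3% ± 1.43 of core windows. The element AGATAA, recognised by zinc finger factors such as pannier, was in 13.9% ± 0.765 and 8.37% ± 1.34 (SD, n = 3 each). Both were higher upstream in 3 of 3 replicates (p = 0.25, exact permutation test). The windows 206 bp upstream of every TSS held them in 32.2% and 13.7%, so the upstream summits did not stand out from promoters in general. CCAAT was in 30.4% of upstream IDR windows and 34.8% of those windows. CACGTG, the E-box of bHLH-zip factors, was in 1.84% ± 0.152 upstream and 2.67% ± 0.422 at the core, a difference of -0.831 ± 0.481 points. A word of 8 bases, CACTGAGA, chosen with earlier results known, was in 2.51% of upstream windows, 0.8% of core windows and 0.606% of the windows upstream of every TSS, and in 4.39% of windows over 500 bp away.

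Of the other elements sought, Stat92E was scarcer than at promoters in general, and AP-1 by little. AP-1 (TGANTCA) was in 3.01% of upstream windows, the Stat92E element (TTCNNNGAA) in 3.51%, the nuclear receptor half-site AGGTCA in 3.51%, the Su(H) core TGGGAA in 9.03% and the Zelda element CAGGTAG in 1%. The windows upstream of every TSS held them in 4.5%, 6.03%, 4.45%, 11.1% and 1.17%. For AP-1 and Stat92E these lay above the exact intervals of the upstream windows, 1.94 to 4.45% and 2.35 to 5.04%, and for the other 3 inside theirs. The AP-1 value was only just above. In the replicates' own lists the upstream share was 3.92%, 3.88% and 4.37% for AP-1 and 3.8%, 4.49% and 4.1% for Stat92E. The repeat CACACACA was more frequent, in 7.03% (exact interval 5.35 to 9.03%) against 3.72%, and in 22.7% of windows at downstream summits. A match to these letters is not evidence of a bound factor.

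The members were spread over the arms much as the eligible sequence is. The X chromosome held 20.5% of the summits and 17.1% of the upstream bases, 2L 19.8% and 18.3%, 3L 21.5% and 19.5%, 3R 19.9% and 23.5%, and 2R 17.6% and 20.7%. Chromosome 4 held 6 upstream summits out of its 14 IDR peaks. Non-coding genes had a closer start than the protein-coding one at 21 of the 797 summits, within 100 bp at 8 of them. The number of upstream summits in the replicates' own lists was 841, 824 and 732.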

How the data were processed

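Regions, summits and signal values are the deposited lists of the authors: 30000 candidate regions per replicate and for the pooled reads, and the 4934 that passed the IDR, on dm6. The signal is the authors' enrichment over 1 control alignment shared by the replicates, per the deposited text notes. Which aligner and caller were used, and the IDR cut-off, is not given in the sources used here. The lists hold no read counts, so the depth of each sample is unknown; exact 95% binomial intervals reflect counting error alone.

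TSSs came from the Ensembl annotation and sequence from the Release 6 genome of RefSeq, the build of the lists. An IDR peak took the value of the overlapping (by at least 1 bp) replicate candidate with the nearest summit, divided by that replicate's median over IDR peaks. Density and context were set against a count of all known bases of the 7 arms under the same rule. Motif searches covered 100 bp to each side of a summit, on either strand. Classes were compared over 3 replicates by exact two-sided sign-flip permutation tests, which cannot reach p = 0.05: their smallest p is 0.25. Replicates are labelled biological; p-values measure only the spread between these 3 libraries.

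Genes named are those of the 20 strongest recurrent members, up to 4 per gene list by signal (28 lists, symbols matched to Ensembl), the 8 strongest divergent pairs, the genes with several summits of highest summed signal and those at the distance bounds; dnc, with as many summits as Svil, the partner genes and Syp were named after their values were seen. The members, lists and motifs were chosen with earlier results of these data known. Python 3.11.15, numpy 2.4.6, scipy 1.17.1, pandas 2.3.3 and matplotlib 3.10.9 were used, and the distance rule was tested on simulated summits. The dm3 lists were not used.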

Additional observations from a re-analysis of the deposited data

How the results depend on the processing

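Most results kept their direction in the alternatives tried: other TSS sets, distance bounds, matching rules, list lengths and windows, and leaving out a replicate. No sign-flip test over 3 replicates can pass 0.05, so these runs show direction only. The signal difference from the core promoter was 0.169 to 0.284 without a replicate, and that from downstream summits 0.133 to 0.237. Recovery differed by 4.66 to 10.6 points from core and by 1.97 to 6.41 points from downstream summits. Both kept their sign but moved with other choices: with the strongest 2000 candidates they were 18.7 and 9.09 points, with the strongest 10000 they were 2.83 and 1.05, and among peaks above the median signal 3.67 and 1.94. With summits matched within 100 bp they were 6.3 and 7.06. The signal difference from downstream summits fell to 0.0882 among peaks above the median signal, and that from core summits was 0.026 among summits at 40% or more G and C.

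The number of upstream summits was 483 among IDR peaks above the median signal, and 585 to 613 of the 797 recurred in both remaining replicates when 1 was left out. The share between divergent genes was 9.41% with starts at most 500 bp apart, 25.6% at 2000 bp, 20.7% for summits no farther than 300 bp and 18.9% with canonical transcripts only, and 13.3 to 15.7% without a replicate. The density of upstream over core summits, 0.757, became 1.04 with an upper bound of 300 bp, 0.498 with 1000 bp and 1.03 among peaks above the median signal, and 0.858 to 0.997 without a replicate, where the weaker peaks drop out. The upper bound of 1000 bp and the 2000 bp limit let in more sequence and the other limits less; the cause of the other changes was not tested.

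The GAGAG difference of -0.165 points ran from -1.5 to 0.719 without a replicate and turned positive without replicate 2 (0.28) and replicate 3 (0.719). It was -2.31 within 50 bp of the summit, -3.21 with the strongest 2000 candidates and -4.37 in IDR peaks. Within 50 bp ATCGATA differed by -2.55, GGTCACAC by -1.8 and CACGTG by -0.402 points, and in IDR peaks CACGTG by -0.392. The summit distance difference of 1.17 bp ran from 0 to 2.75 bp without a replicate and was 1.83 bp among peaks above the median signal. The other motif differences ran, without a replicate, from -5.49 to -2.89 points for ATCGATA, -4.94 to -4.36 for GGTCACAC and -1.11 to -0.663 for CACGTG, and the composition difference, added after seeing the data, from -9.76 to -9.17 points. No paired analysis was possible because there is 1 group.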
